A study of Mus musculus with 20 samples.

Results

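The B lineage transcription factors Ebf1, Pax5, Foxo1, Pou2af1, Bcl11a, Irf4 and Bach2 were followed across 9 blood cell populations of the mouse. These 7 genes were represented by 24 of the 45101 probe sets on the array, all those annotated to 1 of these symbols alone, and 22 of the 24 were bright enough to be tested. The 20 arrays each carried labelled, amplified RNA of 1 sorted bone marrow population from mice aged 8 to 14 weeks. From wild-type C57bl/6 mice there were 2 arrays of hematopoietic stem cells (HSC), 2 of multipotent progenitors (MPP), 2 of lymphoid-primed multipotent progenitors (LMPP), 3 of granulocyte-monocyte progenitors (GMP), 3 of common lymphoid progenitors (CLP), 2 of pro-B cells (labelled ProB) and 2 of CD4 T cells. The remaining 4 were of mature natural killer (NK) cells from 129 mice that all lacked Rag2, 2 with an added Ets1 deficiency (Rag2-- Ets1--) and 2 with intact Ets1 (Rag2-- Ets1++). Strain, Rag2 deficiency and cell type therefore cannot be told apart when NK cells are set against the other populations. Whether replicates stem from separate animals is not stated, and the p-values then reflect only array-to-array spread, part of which may be technical.

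These factors form much of the network that turns a lymphoid progenitor into a B cell. Ebf1, a zinc-knuckle DNA-binding protein, opens B lineage genes in lymphoid progenitors together with the E protein Tcf3 and the forkhead factor Foxo1, and Pax5, a paired-domain factor, then commits the cell by switching on B cell genes and silencing genes of other fates. Bcl11a, a zinc finger protein, is needed before this step, while Pou2af1, a coactivator of octamer-binding proteins, Irf4, an interferon regulatory factor, and Bach2, a repressor that restrains the plasma cell factor Prdm1, act in later B cells as well. Foxo1, Irf4 and Bach2 also have known roles in T cells.

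Upstream sequences are shown for Ebf1, whose 2 annotated starts both lie near the 5′ end of the gene, for Foxo1, whose window held a match to the Ebf1 motif, and for Pou2af1 and Irf4, whose profiles over the 9 populations were the most alike of any pair of these genes. Each is the 250 bases before a gene start of RefSeq (mouse GRCm38.p6), written 5′ to 3′ on the gene's strand, which was the plus strand for all 4 genes. The positions are chr11:44617850-44618099 and chr11:44619978-44620227 for Ebf1, chr3:52268087-52268336 for Foxo1, chr9:51213440-51213689 for Pou2af1 and chr13:30748983-30749232 for Irf4. Capitals mark matches to the motifs searched.
Ebf1 first start: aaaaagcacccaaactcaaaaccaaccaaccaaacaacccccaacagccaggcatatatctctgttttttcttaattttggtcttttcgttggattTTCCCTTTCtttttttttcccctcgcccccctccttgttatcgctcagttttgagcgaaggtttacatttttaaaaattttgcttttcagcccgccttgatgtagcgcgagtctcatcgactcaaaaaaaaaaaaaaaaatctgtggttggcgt
Ebf1 second start: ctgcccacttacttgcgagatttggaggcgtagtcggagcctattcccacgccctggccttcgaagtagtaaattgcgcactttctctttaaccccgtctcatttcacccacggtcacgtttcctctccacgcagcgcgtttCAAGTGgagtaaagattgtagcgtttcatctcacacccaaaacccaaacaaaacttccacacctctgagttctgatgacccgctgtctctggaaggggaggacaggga
Foxo1: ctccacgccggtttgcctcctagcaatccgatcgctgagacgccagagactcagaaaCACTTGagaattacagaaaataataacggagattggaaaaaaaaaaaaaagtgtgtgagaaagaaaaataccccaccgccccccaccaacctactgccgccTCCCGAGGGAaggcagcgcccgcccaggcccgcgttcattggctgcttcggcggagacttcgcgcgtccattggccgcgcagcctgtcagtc
Pou2af1: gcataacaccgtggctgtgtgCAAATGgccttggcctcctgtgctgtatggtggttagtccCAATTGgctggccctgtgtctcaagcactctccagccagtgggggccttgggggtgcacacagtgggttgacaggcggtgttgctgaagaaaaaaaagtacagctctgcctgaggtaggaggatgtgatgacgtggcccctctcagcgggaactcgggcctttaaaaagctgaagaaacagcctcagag
Irf4: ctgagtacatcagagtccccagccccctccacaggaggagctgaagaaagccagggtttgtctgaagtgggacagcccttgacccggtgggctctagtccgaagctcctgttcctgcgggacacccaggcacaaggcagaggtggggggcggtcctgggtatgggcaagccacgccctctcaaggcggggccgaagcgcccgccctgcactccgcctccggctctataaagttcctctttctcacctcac

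The search covered 300 bases around each start, 250 before and 50 after, on both strands. In the first Ebf1 window the capitals are the reverse strand of GAAANNGAA, a repeat bound by interferon regulatory factors, beginning 154 bases before the start. This repeat was present in 8.56% of all 32851 promoter windows. In the Foxo1 window the letters TCCCNNGGG, bound by Ebf1, matched on both strands in copies that overlap and begin 92 and 91 bases before the start, and 6.56% of all windows held a match. The other capitals are CANNTG, the E-box that Tcf3 binds, which 72.3% of all windows contained. No window of these genes held ATTTGCAT, the octamer, found in 1.74% of all windows, nor the forkhead letters TGTTTAC and TGTTTTG, found in 3.65% and 6.28%, nor GGAAGTG and GGAAGTA, which ETS factors bind, found in 11% and 4.50%. The GC content was 36.7% and 53.0% around the 2 Ebf1 starts, 61.3% for Foxo1, 61.0% for Irf4 and 55.3% for Pou2af1, against a median of 52.7% over all windows.

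**Figure D1:**
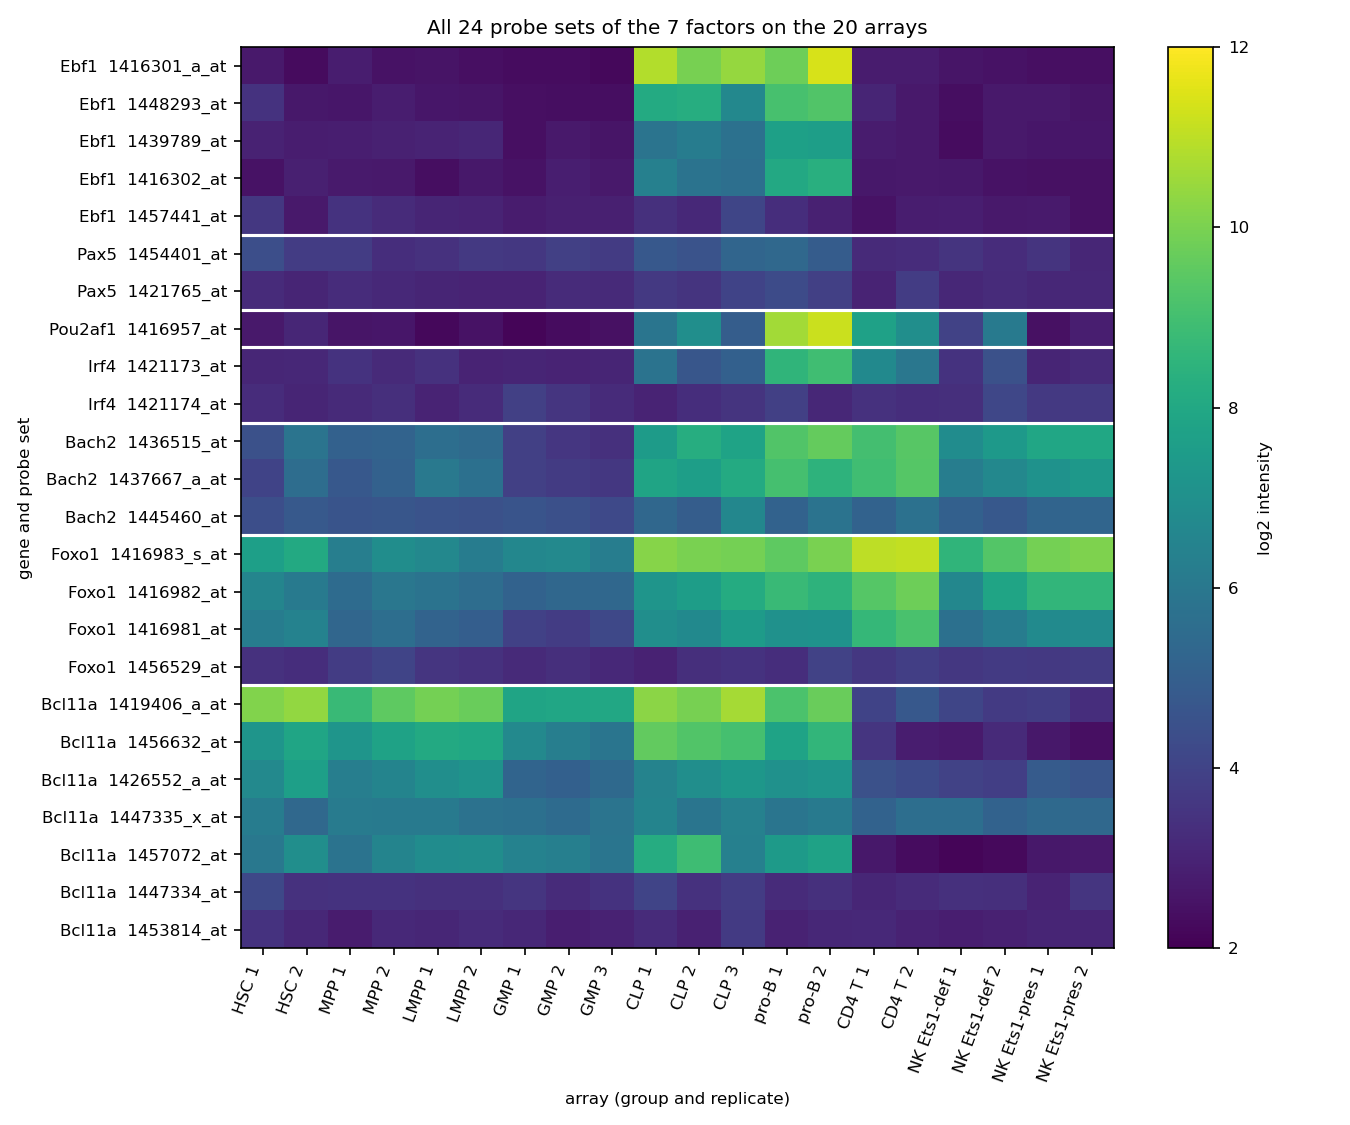
Log2 intensity of the 24 probe sets of the 7 genes (rows, grouped by gene) on the 20 arrays (columns, by group and replicate), with colour from 2 to 12 on the log2 scale. The 4 tested Ebf1 probe sets were bright on the CLP and pro-B arrays alone. The brightest Bcl11a probe set was bright from HSC to pro-B cells and dark in CD4 T and NK cells. Bcl11a 1447335_x_at varied little, and 1447334_at and 1453814_at were dim throughout.

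All values are log2 intensities, in which 1 unit is a 2-fold step, and levels of different probe sets are not compared with each other. The median of each array lay between 3.78 and 4.04, so a signal near or below 4 belonged to the dimmer part of the array. No detection calls were used, and a difference measured against such a dim signal depends on the background correction. For each gene the probe set that was brightest on average is described first. Replicate arrays correlated at 0.911 to 0.996 over the tested probe sets. CLP arrays were the least alike, with a root-mean-square SD of 0.571 per probe set, against 0.203 to 0.471 in the other groups. Actin signal at the 3′ end exceeded that at the 5′ end by 3.26 to 5.27 log2 units on CLP arrays and by 6.44 to 6.68 on GMP arrays, against 0.97 to 4.07 on all others. Its part in the values below was not tested.

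Ebf1 was the gene with the sharpest boundary. Its brightest probe set (1416301_a_at) read 9.79 and 11.41 in pro-B cells and 10.85, 9.93 and 10.42 in CLP. On every other array it lay between 2.21 and 2.79. The pro-B and CLP arrays overlapped, and a gap of 7.65 log2 units between group means separated CLP from the next population. A second probe set (1448293_at) read 9.09 and 9.28 in pro-B cells, against 8.10, 8.23 and 6.68 in CLP, and 2.36 to 3.48 elsewhere. Probe set 1439789_at read 7.68 and 7.62 in pro-B cells, against 5.86, 6.18 and 5.74 in CLP. Probe set 1416302_at read 8.05 and 8.33 in pro-B cells, against 6.35, 5.83 and 5.65 in CLP. On these 3 probe sets each pro-B array lay above each CLP array, so the probe sets of Ebf1 disagreed on whether the transcript was higher in pro-B cells than in CLP. Across the 9 group means the 4 correlated with each other at 0.964 to 0.994. Probe set 1457441_at, at 2.46 to 4.07, was too dim to test.

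Pax5 was also highest in pro-B cells and CLP, at a signal near the array median. Its brightest probe set (1454401_at) read 5.37 and 4.91 in pro-B cells, 4.77, 4.57 and 5.26 in CLP, and 4.42 and 3.79 in HSC. The remaining arrays lay between 3.08 and 3.91, at or below their array medians or close to them. Pro-B and CLP arrays overlapped, and CLP exceeded HSC, the next population, by 0.76 log2 units with no overlap. The other probe set (1421765_at) read 4.28 and 3.91 in pro-B cells and 3.65, 3.50 and 4.0 in CLP, and reached 3.79 on 1 CD4 T array.

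Foxo1 was bright in every lymphoid population. Its brightest probe set (1416983_s_at) read 9.53 and 9.99 in pro-B cells, 10.19, 9.99 and 9.91 in CLP, and 10.99 and 11.07 in CD4 T cells. NK cells read 8.53 and 9.34 without Ets1 and 9.90 and 10.07 with it. HSC read 7.63 and 8.07, while MPP, LMPP and GMP arrays lay between 6.22 and 6.89. CD4 T cells thus stood above all others, CLP, Ets1-present NK and pro-B arrays overlapped, and HSC lay 1.27 log2 units above MPP without overlap. Probe sets 1416982_at and 1416981_at followed the first at correlations of 0.967 and 0.905 over the 9 group means, and 1456529_at stayed between 2.96 and 4.03 on all arrays.

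Bcl11a had high signal in stem cells, progenitors and pro-B cells, and low signal in CD4 T and NK cells. Its brightest probe set (1419406_a_at) read 10.12 and 10.40 in HSC, 8.77 and 9.51 in MPP, 9.91 and 9.70 in LMPP, and 10.25, 9.97 and 10.66 in CLP. Pro-B cells read 9.16 and 9.72, and GMP read 7.83, 7.93 and 8.00. CD4 T cells read 4.0 and 4.76, and NK cells read 4.10 and 3.68 without Ets1 and 3.82 and 3.31 with it. GMP therefore lay 3.54 log2 units above CD4 T cells, the widest gap in the order of Bcl11a, and CD4 T and NK arrays overlapped. Probe set 1456632_at placed CLP highest at 9.59, 9.27 and 9.07, against 8.08 and 7.94 in LMPP, and pro-B cells at 7.79 and 8.57. Probe sets 1426552_a_at and 1457072_at correlated with the first at 0.945 and 0.967. Probe set 1447335_x_at correlated with it at 0.894 but stayed between 5.14 and 6.50, above the median of all 20 arrays. The dim 1447334_at and 1453814_at stayed between 3.01 and 4.16 and between 2.77 and 3.69. On 1457072_at CLP arrays spread from 6.34 to 8.91.

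Pou2af1 and Irf4 marked pro-B cells more strongly than CLP. The single Pou2af1 probe set (1416957_at) read 10.62 and 11.19 in pro-B cells, 7.71 and 6.94 in CD4 T cells, and 5.90, 6.94 and 4.94 in CLP. NK cells read 3.99 and 6.10 without Ets1 and 2.44 and 2.83 with it, and the other groups lay between 2.15 and 3.08. Pro-B cells stood 3.58 log2 units above CD4 T cells with no overlap, whereas CLP arrays overlapped with those of Ets1-deficient NK cells, and these 2 groups had the widest spread, with SDs of 1.00 and 1.49.

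Irf4 had the same 4 populations on top, in the same order. Its brighter probe set (1421173_at) read 8.55 and 8.93 in pro-B cells, 6.75 and 5.96 in CD4 T cells, and 5.80, 4.67 and 5.05 in CLP. NK cells read 3.48 and 4.49 without Ets1 and 3.05 and 3.18 with it, and the remaining arrays lay between 2.99 and 3.48. No 2 of the groups pro-B, CD4 T, CLP and Ets1-deficient NK overlapped. The other probe set (1421174_at) varied only between 2.98 and 4.14 and correlated with the first at 0.135.

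Bach2 was highest in pro-B and CD4 T cells and lowest in GMP. Its brightest probe set (1436515_at) read 9.30 and 9.63 in pro-B cells, 9.01 and 9.42 in CD4 T cells, and 7.49, 8.23 and 7.80 in CLP. NK cells read 6.87 and 7.37 without Ets1 and 7.91 and 7.95 with it. LMPP read 5.60 and 5.45, MPP 5.10 and 5.17, HSC 4.47 and 5.85, and GMP 3.91, 3.58 and 3.37. Pro-B and CD4 T arrays overlapped at the top, and GMP lay 1.52 log2 units below MPP, the next population. A second probe set (1437667_a_at) correlated with the first at 0.983, and 1445460_at moved over a smaller range, 4.22 to 6.63, at a correlation of 0.920. On 1445460_at CLP had the highest group mean, ahead of pro-B and CD4 T cells, and CLP and pro-B arrays overlapped.

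**Figure D2:**
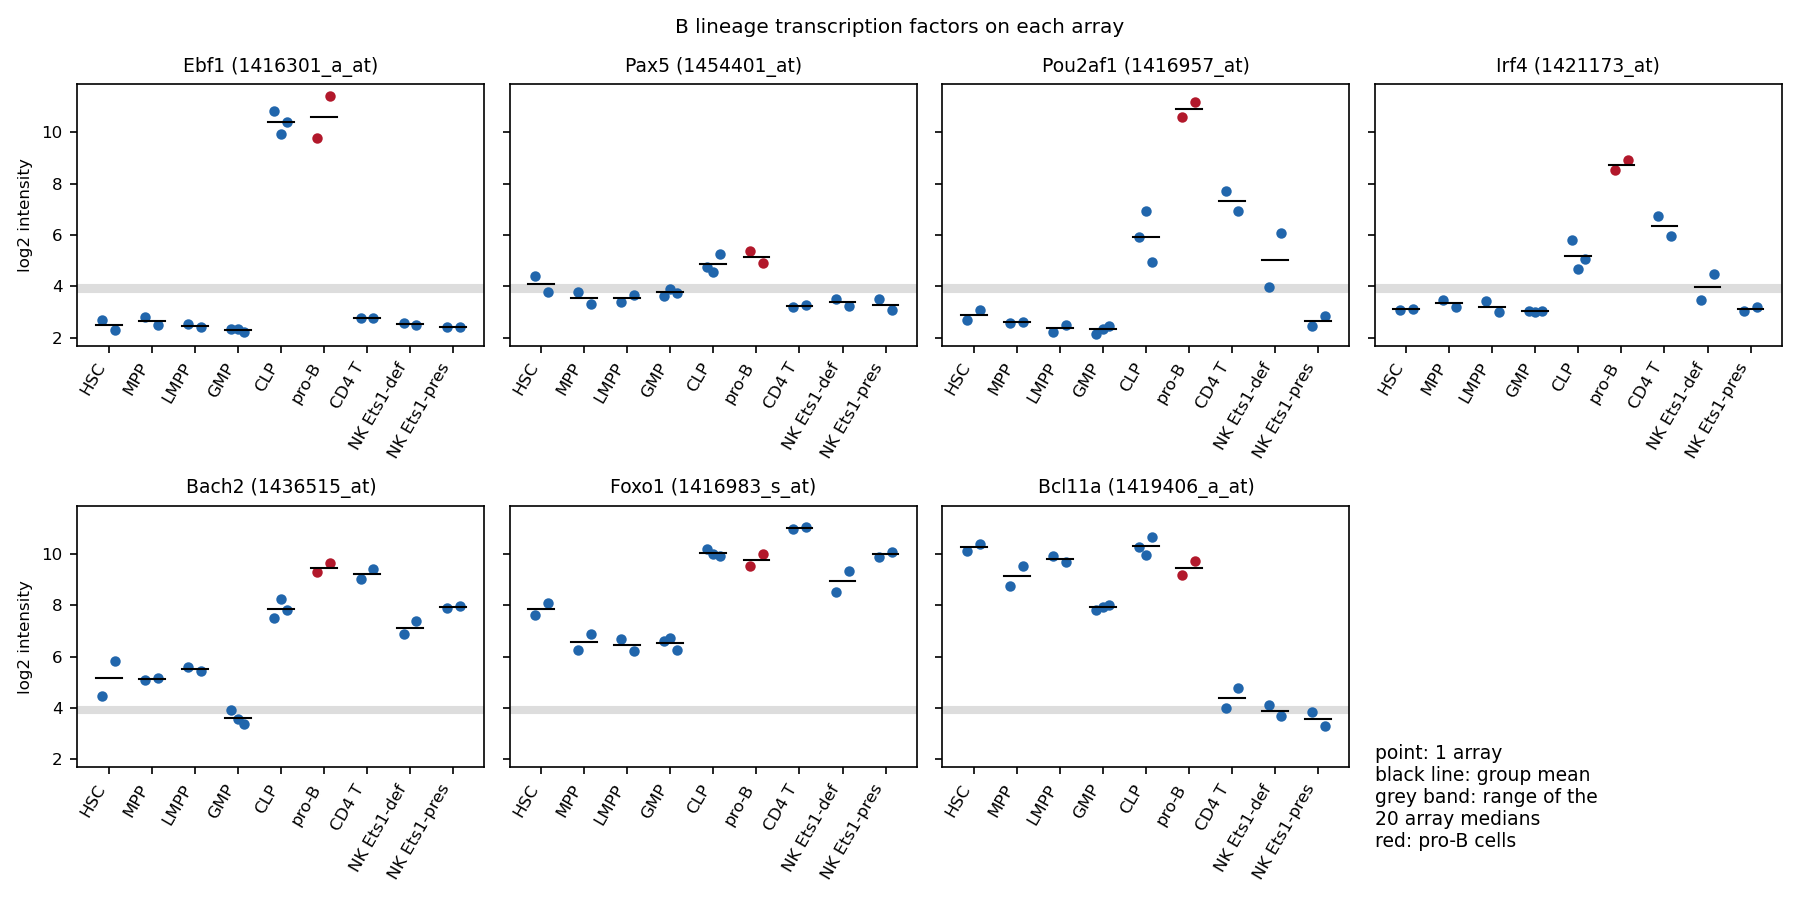
Log2 intensity of the brightest probe set of each of the 7 genes (panels) in the 9 populations (horizontal axis), where each point is 1 array, black lines are group means and the grey band is the range of the 20 array medians. Ebf1 stood above the band in CLP and pro-B cells alone, Pou2af1 and Irf4 were highest in pro-B cells, Foxo1 in CD4 T cells, and Bcl11a fell into or near the band in CD4 T and NK cells.

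The step from LMPP to CLP was tested first, since CLP are the progenitors in which the B lineage program begins. Groups were compared with limma over all 29047 tested probe sets, and a gene was counted when at least 1 of its probe sets had an adjusted p below 0.05. All 7 genes rose in CLP and none fell, whereas over all 13526 tested genes 9.41% were called higher and 24% lower. A gene with more probe sets has more chances to be counted, and these genes had 1 to 7 probe sets each against a median of 1. In bulk samples fewer cells of a type and less RNA per cell cannot be told apart.

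Ebf1 rose most, by 7.93 ± 0.35 log2 units in CLP over LMPP (estimate ± SE, limma adjusted p = 4.06e-10), and its other 3 tested probe sets rose by 2.89 to 5.08. Foxo1 rose by 3.58 ± 0.29 (adjusted p = 3.81e-07) and Pou2af1 by 3.57 ± 0.51 (adjusted p = 0.000155). Bach2 gained 2.32 ± 0.34, Irf4 1.97 ± 0.33 and Pax5 1.33 ± 0.26 log2 units, with limma adjusted p of 0.000194, 0.000615 and 0.00189. Bcl11a rose on 1456632_at (1.30 ± 0.34, adjusted p = 0.0106), while its brightest probe set differed by 0.49 ± 0.31 (adjusted p = 0.294). The Bcl11a call was lost without LMPP array 1 (1.37, adjusted p = 0.0622) or LMPP array 2 (1.23, adjusted p = 0.0920). With CLP array 2, the one of lowest actin 3′ excess, as the only CLP array, 6 of the 7 genes were called. The calls of Pax5 1454401_at (1.03, adjusted p = 0.0621) and Bcl11a 1456632_at (1.26, adjusted p = 0.0950) ended, and Bcl11a was then counted through another probe set.

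Pro-B cells differed from CLP in the level of 6 of the 7 genes. Pou2af1, Irf4, Ebf1, Bach2 and Foxo1 rose, 5 of 7 where 26.4% of all tested genes were called higher, and Bcl11a fell, where 16.9% were called lower. Pou2af1 changed most, by 4.97 ± 0.51 log2 units or 31.4-fold in pro-B cells over CLP (limma adjusted p = 2.22e-06), and Irf4 by 3.56 ± 0.33 or 11.8-fold (adjusted p = 7.11e-07). Both were also called when any single CLP or pro-B array was left out, with differences of 4.48 to 5.48 for Pou2af1 and 3.31 to 3.88 for Irf4.

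Ebf1 rose in pro-B cells over CLP by 2.25 ± 0.22 on 1416302_at, 1.72 ± 0.19 on 1439789_at and 1.51 ± 0.35 on 1448293_at (limma adjusted p = 1.33e-06, 5.36e-06 and 0.00352). On its brightest probe set the difference was 0.20 ± 0.35 (adjusted p = 0.697). Bach2 rose by 1.62 ± 0.34 (adjusted p = 0.00182) on its brightest probe set, and by less with CLP array 2 as the only CLP array, where it was no longer called (1.23, adjusted p = 0.0673). Pax5, the factor of commitment, differed by 0.27 ± 0.26 (adjusted p = 0.464), which does not show that its levels were alike.

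Foxo1 and Bcl11a were called on some of their probe sets only. Foxo1 was called higher on 1416982_at alone (0.98 ± 0.34, limma adjusted p = 0.0360), and differed by -0.27 ± 0.29 on its brightest probe set. Bcl11a fell by 0.85 ± 0.31 on 1419406_a_at and by 1.13 ± 0.34 on 1456632_at (adjusted p = 0.0488 and 0.0169). The Foxo1 call ended without CLP array 1 (0.77), CLP array 2 (0.94), pro-B array 1 (0.81) or pro-B array 2 (1.15). Both Bcl11a calls ended without CLP array 1 (-0.87 and -0.99) or pro-B array 1 (-0.58 and -0.74), and that of 1419406_a_at also without CLP array 3 (-0.67) or pro-B array 2 (-1.13).

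**Figure D3:**
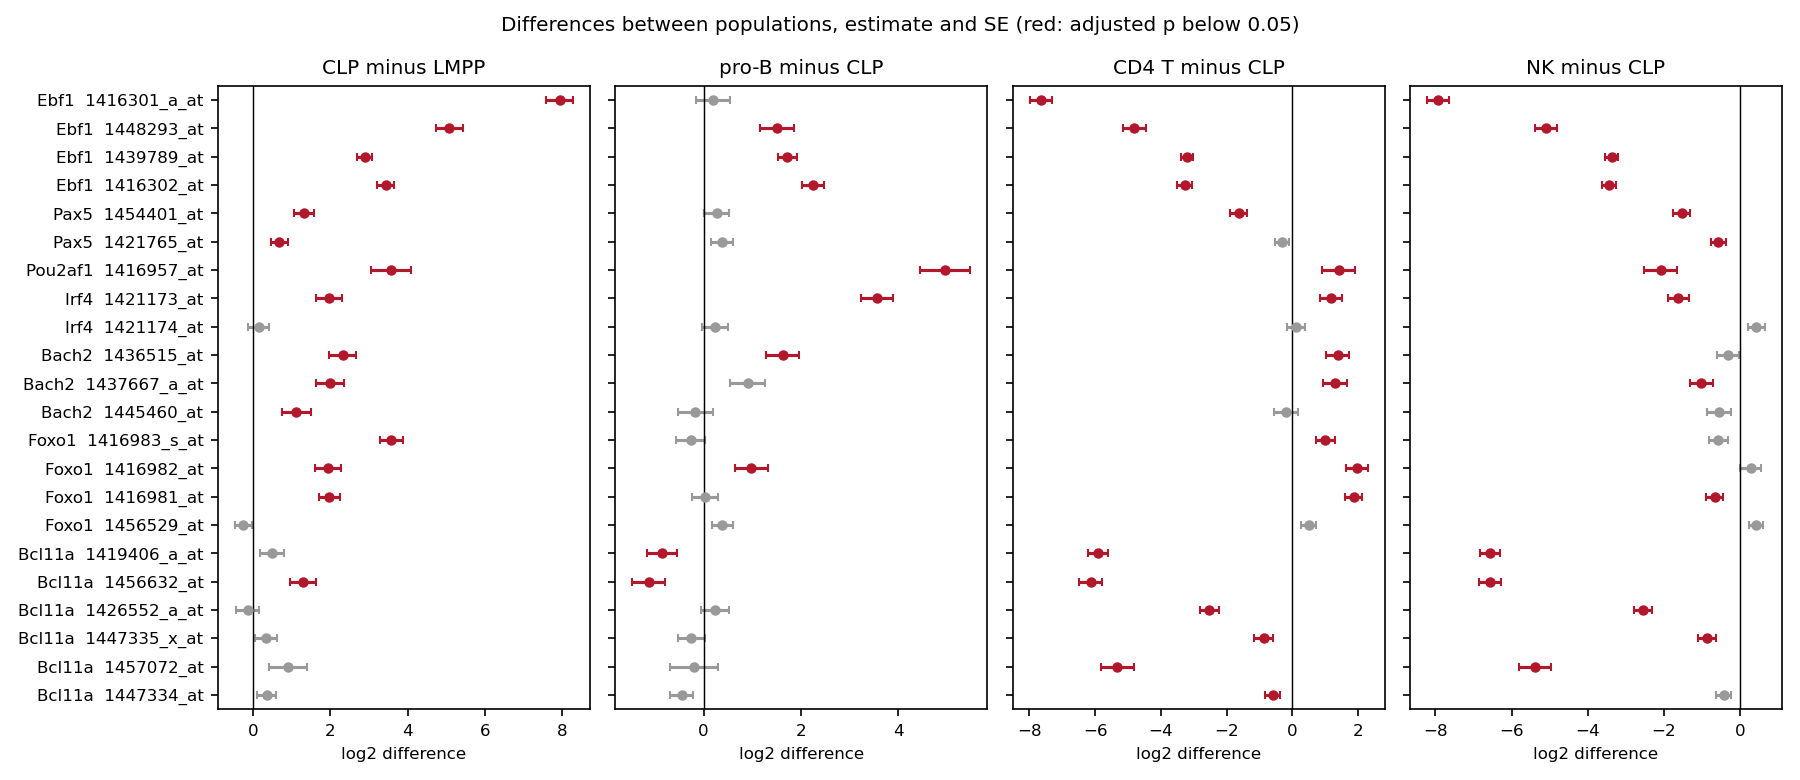
Log2 differences (points) with their standard errors (bars) for the 22 tested probe sets in 4 comparisons, with calls at an adjusted p below 0.05 in red. CLP exceeded LMPP on most probe sets, pro-B cells exceeded CLP most in Pou2af1 and Irf4, and CD4 T and NK cells lay far below CLP in Ebf1 and Bcl11a.

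Genes that work with these factors, or act downstream of them, were then read in the same comparison, with 26.4% of all genes higher and 16.9% lower in pro-B cells than in CLP. Of 24 tested effector and target genes of the B lineage, 14 rose, 5 fell and 5 did not pass, with a median difference of 1.33 against -0.06 over all probe sets. Fcrla, an Fc receptor-like protein of B cells, rose by 4.63 on its most changed probe set. Igll1, the surrogate light chain component, rose by 4.47 ± 0.31, Cd22, an inhibitory coreceptor, by 4.37 ± 0.32, and Cd24a, a surface protein of developing B cells, by 3.84 on its most changed probe set. The genes that fell included Dntt, which adds nucleotides at receptor gene junctions, by 2.52 on its most changed probe set, the recombinase gene Rag1 by 2.00 ± 0.40, Arpp21 by 1.06 ± 0.29 on its brightest probe set, and the progenitor surface protein Ly6d by 1.33 ± 0.32.

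Among 18 tested partner factors 5 rose and 8 fell, with a median of -0.45. Spib, an ETS factor of B cells, rose by 4.19 ± 0.24 and the Ikaros family member Ikzf3 by 3.79 ± 0.28 on its brightest probe set. Lef1 rose by 3.17 ± 0.29 and the E protein gene Tcf12 by 2.16 on 1 of its less bright probe sets. The other Ikzf3 probe sets (-0.64 and -0.12) and the brightest Tcf12 one (0.50) were not called. Foxp1, a forkhead factor, fell by 2.35 ± 0.27, and Ikzf2, Zfp521 and Sox4 differed by -2.05 ± 0.37, -1.86 ± 0.57 and -1.85 ± 0.36. The Zfp521 value is from its less bright probe set, and its brightest one was not called (-0.45). Tcf3, which acts with Ebf1, rose by 1.56 ± 0.32. The count that fell was 4 without pro-B array 1.

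Of 15 tested regulators of plasma cells and other fates, 2 rose, 5 fell and 8 did not pass. Id3, an inhibitor of E proteins, rose by 4.06 ± 0.33, and Xbp1, a plasma cell factor, by 1.18 on a less bright probe set. Notch1, the receptor that directs T cell fate, fell by 3.22 ± 0.28, Id2 by 2.13 ± 0.42, and Zbtb16 and Gata2 by 1.05 and 0.71 on less bright probe sets. The brightest probe sets of Xbp1 (0.48), Zbtb16 (-0.25) and Gata2 (-0.50) were not called. Prdm1, the plasma cell factor that Bach2 represses, was not called (-0.19 ± 0.26) and was singled out after its value was seen. Of 11 tested relatives from the families of the 7 factors, Irf5 rose by 0.97 on its less bright probe set, and 5 fell, led by Foxo3 at -2.32 ± 0.27, the octamer factor Pou2f3 at -1.34 ± 0.36, Irf2 at -1.14 ± 0.29 and Irf1 at -0.97 ± 0.26. The brighter Irf5 probe set was not called (0.19). Foxo3 is a forkhead relative of Foxo1, and Irf1, Irf2 and Irf5 belong to the interferon regulatory factors, as Irf4 does. Without 1 array the fate regulators that fell numbered 2 to 7, with 3 without CLP array 1 or pro-B array 1 and 2 without CLP array 3 or pro-B array 2, and those that rose numbered 1 without any of these 4. The relatives that fell numbered 1 without pro-B array 1, and none rose without CLP array 1, CLP array 2 or pro-B array 2.

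Marker genes were read beside these differences. The 6 pro-B markers present summed to linear intensities of 10098 to 18911 on pro-B arrays and 1553 to 2723 on CLP arrays, and all 6 lay over 1 log2 unit above the array median in both groups. Jchain, the joining chain of secreted antibodies and 1 of 5 plasma cell markers, read 11.39 and 11.68 in pro-B cells, against 3.02, 3.17 and 3.13 in CLP. The 5 plasma cell markers together, Jchain included, summed to 3372 to 4385 in pro-B cells and 381 to 1232 in CLP. Of these 5, 3 were called higher in pro-B cells, where 26.4% of all genes were, and 1 lower, where 16.9% were. Their median difference was 0.48, against -0.06 over all probe sets. Prdm1 lay at or below the array median in both groups. The 7 mature B cell markers summed to 409 to 476 in pro-B cells and 377 to 502 in CLP, with Cr2, Fcer2a, Cd83 and Cxcr5 at or below the median in both. The 5 plasmacytoid dendritic cell markers present summed to 275 to 278 in pro-B cells and 697 to 977 in CLP. The part of plasma cell transcripts in the Pou2af1 and Irf4 differences was not tested.

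Centring each array on 12 housekeeping genes moved the median of all probe sets to -0.82 for pro-B cells minus CLP, against -0.06 as deposited, and to 0.90 for CLP minus LMPP, against -0.01. Differences that involve CLP are therefore read relative to the bulk of the probe sets. The shift was -0.70 for CD4 T cells minus CLP and -0.55 for NK cells minus CLP. On that scale the pro-B difference remained called for Pou2af1 (4.21), Irf4 (2.80), Bach2 (0.86) and Ebf1 1416302_at (1.48), and was lost for Ebf1 1448293_at (0.75, adjusted p = 0.0614) and Foxo1 1416982_at (0.22, adjusted p = 0.643).

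Pro-B cells were also set against populations outside the CLP stage. Against LMPP, 6 of the 7 genes were higher, where 9.20% of all genes were, and none was lower, where 11.6% were. Bcl11a was the exception, at -0.37 ± 0.34 log2 units (limma adjusted p = 0.579). Pou2af1 exceeded LMPP by 8.54 ± 0.56, Ebf1 by 8.13 ± 0.38 and Irf4 by 5.53 ± 0.37. These differences are measured against dim signals in LMPP.

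Against GMP, all 7 genes were higher in pro-B cells, where 11.4% of all genes were, and none was lower, where 16.6% were. Bach2 exceeded GMP by 5.85 ± 0.34 log2 units (limma adjusted p = 7.42e-10) and Foxo1 by 3.24 ± 0.29 (adjusted p = 2.09e-07). Bcl11a, which GMP also expressed, was higher by 1.52 ± 0.31 (adjusted p = 0.00193).

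Against CD4 T cells, 5 genes were higher in pro-B cells, where 13.9% of all genes were, and 1 was lower, where 20.2% were. Ebf1 exceeded CD4 T cells by 7.84 ± 0.38, Bcl11a by 5.06 ± 0.34, Pou2af1 by 3.58 ± 0.56, Irf4 by 2.38 ± 0.37 and Pax5 by 1.90 ± 0.29 log2 units. Foxo1 was lower in pro-B cells by 1.27 ± 0.32 (limma adjusted p = 0.00637), a call that ended without pro-B array 1 (-1.04, adjusted p = 0.0668), and by 1.83 ± 0.30 on 1416981_at (adjusted p = 0.000131). Bach2 differed by 0.25 ± 0.38 (adjusted p = 0.694).

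Against the mean of both NK genotypes, all 7 genes were higher in pro-B cells, where 17.2% of all genes were, and none was lower, where 26.8% were. Ebf1 exceeded NK cells by 8.13 ± 0.33, Pou2af1 by 7.06 ± 0.49, Bcl11a by 5.71 ± 0.30, Irf4 by 5.19 ± 0.32 and Bach2 by 1.94 ± 0.33 log2 units. Foxo1 was counted through 1416981_at alone (0.69 ± 0.26, limma adjusted p = 0.0482), and leaving out either pro-B array (0.72 and 0.66), either Ets1-present array (0.68 and 0.70) or Ets1-deficient array 1 (0.57) ended that call.

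Other lymphoid populations kept some of the factors and lacked others. The comparisons with CLP share the 3 CLP arrays. In CD4 T cells 4 genes were higher than in CLP, Foxo1, Bach2, Pou2af1 and Irf4, where 35.4% of all genes were higher, and 3 were lower, Ebf1, Bcl11a and Pax5, where 23.3% were lower. Ebf1 differed by -7.65 ± 0.35, Bcl11a by -5.91 ± 0.31 and Pax5 by -1.64 ± 0.26 log2 units (limma adjusted p = 1.68e-11, 1.3e-10 and 8.8e-05). Foxo1 was higher on 3 probe sets, by 1.00 ± 0.29 on the brightest, 1.95 ± 0.34 on 1416982_at and 1.86 ± 0.27 on 1416981_at. The call on the brightest ended without either CD4 T array (1.04 and 0.96).

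Pou2af1 was higher in CD4 T cells than in CLP by 1.40 ± 0.51 log2 units, Irf4 by 1.18 ± 0.33 and Bach2 by 1.37 ± 0.34 (limma adjusted p = 0.0365, 0.00881 and 0.00394). The call of Pou2af1 ended without CLP array 1 (1.39), CLP array 3 (0.90) or CD4 T array 1 (1.02), that of Irf4 without CD4 T array 1 (0.79), and that of Bach2 without CD4 T array 2 (1.17). With housekeeping centring all 3 missed the threshold, at 0.68, 0.46 and 0.65. Markers of mature B cells moved with these 3 genes. None of the 7 lay at or below the array median in CD4 T cells, and they summed to 2703 to 3223 there and to 377 to 502 in CLP. Cxcr5 read 8.31 and 8.83 in CD4 T cells and 3.34 to 3.65 in CLP, and Jchain read 7.56 and 7.48 in CD4 T cells and 3.02 to 3.17 in CLP. The part of B cell transcripts in the CD4 T values was not tested.

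In the mean of both NK genotypes all 7 genes were called lower than in CLP, where 28.8% of all genes were. None was higher, where 42.7% were. Ebf1 differed by -7.93 ± 0.29, Bcl11a by -6.57 ± 0.26, Pou2af1 by -2.09 ± 0.43, Irf4 by -1.62 ± 0.28 and Pax5 by -1.54 ± 0.22 log2 units. Bach2 passed on 1437667_a_at (-1.02 ± 0.31, limma adjusted p = 0.00954) and Foxo1 on 1416981_at (-0.67 ± 0.23, adjusted p = 0.0198), while their brightest probe sets differed by -0.32 ± 0.29 and -0.57 ± 0.25 without passing. The Foxo1 call ended without CLP array 3 (-0.44), Ets1-present array 1 (-0.65) or Ets1-deficient array 1 (-0.54).

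Of the steps before the CLP stage only LMPP against HSC was tested, and its counts do not set the 7 genes apart from all genes. In LMPP none of the 7 was higher than in HSC, where 4.52% of all genes were, and Foxo1 was lower, where 6.58% were. Its brightest probe set differed by -1.40 ± 0.32 log2 units (limma adjusted p = 0.0102), and the call ended without HSC array 2 (-1.17) or LMPP array 2 (-1.16). Ebf1 differed by -0.03 ± 0.38 and Pou2af1 by -0.53 ± 0.56, on signals that were dim in both populations.

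In the myeloid branch 3 genes were lower in GMP than in LMPP, where 16.3% of all genes were, and none was higher, where 20% were. Bach2 fell by 1.91 ± 0.34 log2 units (limma adjusted p = 0.00052) and by 2.12 ± 0.36 on its second probe set. Bcl11a fell by 1.72 to 1.89 on 3 probe sets, with an adjusted p of 0.000263 on the brightest. Foxo1 was lower on 1416981_at alone (-1.13 ± 0.27, adjusted p = 0.00511), a call lost without LMPP array 1 (-1.02, adjusted p = 0.0682), and differed by 0.07 ± 0.29 on its brightest probe set.

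Loss of Ets1 in NK cells was examined last. Ets1 itself still read 6.53 or more on all 4 of its probe sets in Ets1-deficient cells. On each of the 4, both Ets1-deficient arrays lay below both Ets1-present arrays. Probe set 1422027_a_at read 6.53 and 7.22 in Ets1-deficient and 8.34 and 8.51 in Ets1-present NK cells. The brightest, 1426725_s_at, read 11.28 and 10.85, against 11.34 and 11.45 with Ets1. The position of these probes relative to the deleted part was not analysed here, so they do not check the labels.

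Pou2af1 was the only one of the 7 genes called between the genotypes, where 2.49% of all genes were higher and 3.56% lower in Ets1-deficient cells. It read 3.99 and 6.10 in Ets1-deficient NK cells, against 2.44 and 2.83 in Ets1-present NK cells, a difference of 2.41 ± 0.56 log2 units (limma adjusted p = 0.0204). Both deficient arrays lay above both others, but 2.11 log2 units apart from each other. Without Ets1-deficient array 2 the difference was 1.35 (adjusted p = 0.306), and the call also ended without Ets1-present array 1 (2.21, adjusted p = 0.202) or Ets1-present array 2 (2.61, adjusted p = 0.101), and when only the 4 NK arrays were fitted (adjusted p = 0.0697).

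Irf4, whose profile was closest to that of Pou2af1, read 3.48 and 4.49 in Ets1-deficient and 3.05 and 3.18 in Ets1-present NK cells, and its difference of 0.87 ± 0.37 did not pass (limma adjusted p = 0.259). Ets1-deficient array 2 was the higher one for both genes. On that array actin 3′ excess was 4.07 log2 units, against 2.76 to 2.90 on the other 3 NK arrays. Markers of pro-B cells summed to 104 to 119 in Ets1-deficient and 109 to 117 in Ets1-present NK cells, and Jchain read 2.83 and 3.49 against 2.64 and 2.85, so these levels were low in both genotypes. The 7 granulocyte-monocyte and neutrophil markers summed to 970 to 1965 in Ets1-deficient and 3955 to 4323 in Ets1-present NK cells, and 5 of them were called lower. The 7 CD4 T markers summed to 863 to 946 in Ets1-deficient and 425 to 494 in Ets1-present NK cells, with 2 called higher and 1 lower. In Ets1-deficient cells Cd3e, Cd3d, Cd3g and Cd28 lay over 1 log2 unit above the array median, and Cd5 and Trat1 at or below it. In Ets1-present cells Cd3e and Cd28 lay as high, and Cd5 at or below the median. The part of other cells or of array quality in the NK differences was not tested.

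Foxo1 was lower in each Ets1-deficient array than in each Ets1-present array on its 3 bright probe sets. On 1416982_at it read 6.65 and 7.85 in Ets1-deficient and 8.59 and 8.60 in Ets1-present NK cells. The differences of -1.34 ± 0.37, -1.05 ± 0.32 and -0.86 ± 0.30 had limma adjusted p of 0.0514, 0.0831 and 0.142 and did not pass. The first passed without Ets1-deficient array 2 (-1.95, adjusted p = 0.0129), and also with a stricter filter (adjusted p = 0.0492), no trend (0.0446), array weights (0.00242) or a replicate block (0.0401), so the call turned on the model. Bach2 differed by -0.81 ± 0.38 (adjusted p = 0.341), again with no overlap between the genotypes. On their brightest probe sets Ebf1 and Pax5 lay below the array median on all 4 NK arrays and Bcl11a on 3 of 4, and their differences were 0.11 ± 0.38, 0.09 ± 0.29 and 0.33 ± 0.34.

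**Figure D4:**
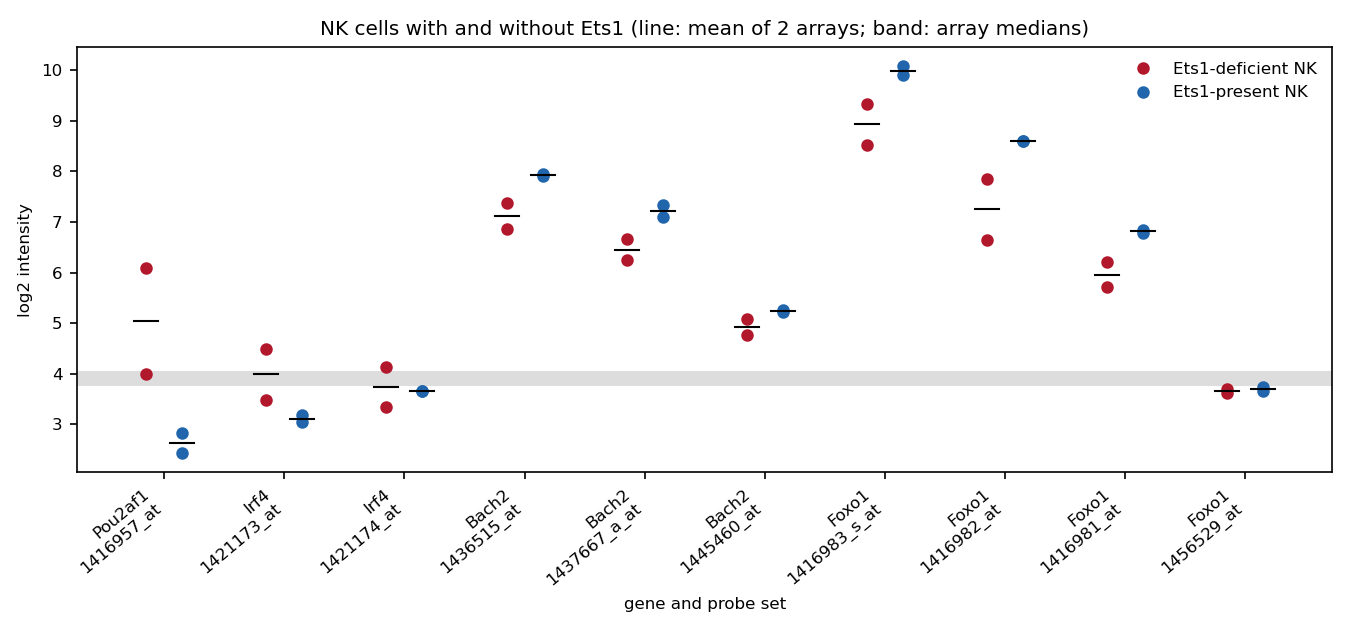
Log2 intensity of the 10 tested probe sets of Pou2af1, Irf4, Bach2 and Foxo1 in Ets1-deficient (red, left of each pair) and Ets1-present NK cells (blue, right), where each point is 1 array, lines are means of 2 arrays and the grey band is the range of array medians. Pou2af1 lay higher in both deficient arrays, and the bright Foxo1 and Bach2 probe sets lay lower in both.

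In the lists read beside the 7 factors, Sox4 was higher in Ets1-deficient NK cells by 1.92 ± 0.40 log2 units on its brightest probe set (limma adjusted p = 0.00897). It was the 1 of 18 partner factors that rose, and its other probe sets, at -0.23 to 0.51, were not called. The 2 that fell were Foxp1, by 1.39 ± 0.29 on a less bright probe set, and Tcf4, by 1.25 ± 0.28 on its brightest. The brightest Foxp1 probe set (-0.82) and the other Tcf4 probe sets (-1.14 to 0.02) were not called. No partner rose without Ets1-deficient array 2 or either Ets1-present array, and 2 rose without Ets1-deficient array 1. Of the falls, 1 was left without Ets1-deficient array 2 and none without any of the other 3 arrays. Il7r, the receptor for the cytokine interleukin 7, fell by 2.59 ± 0.44 on its brightest probe set (limma adjusted p = 0.0018). Its other probe set differed by -0.21 and was not called. None of the other B lineage effector genes passed, so 1 of 24 was lower, where 3.56% of all genes were. None of 15 regulators of plasma cells and other fates passed, and of 11 family relatives Bach1 fell by 1.63 ± 0.33 on a less bright probe set and Irf9 by 1.27 ± 0.32, where 3.56% of all genes were lower. Only 1 of these falls was called without Ets1-deficient array 1, and none without any of the other 3 arrays.

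The 7 genes were compared by their profile over the 9 group means, with Pearson correlations that carry no test. The closest pairs were Pou2af1 and Irf4 at 0.988, Ebf1 and Pax5 at 0.916, and Foxo1 and Bach2 at 0.915. Between genes of different pairs the highest was 0.815, for Pou2af1 and Bach2. Bcl11a correlated at 0.67 with Pax5 and 0.44 with Ebf1, and between -0.47 and 0.05 with the other genes. All 9 means come from 1 array platform, and several populations are neighbouring stages, so the points are not independent.

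Among 13478 genes the ones closest to Ebf1 were Epha2 (0.989, over a range of only 1.11 log2 units), Rag1 (0.978), the adaptor gene Blnk (0.975), the surrogate light chain gene Vpreb1 (0.967) and Gfra1 (0.958). Irf4 ranked first for Pou2af1, followed by Akap2 (0.980, over a range of 0.992 log2 units), Akap12 (0.944), Gsn (0.940) and Bdh1 (0.936). Pou2af1 in turn ranked first for Irf4, followed by Akap2 (0.986), Akap12 (0.969) and the antibody genes Igha (0.962) and Iglv1 (0.956). Foxo1 and Bach2 stood on each other's lists and shared Ppp1r16b (0.962 and 0.971).

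The other genes near Foxo1 were H2-Eb2 (0.953, over a range of 0.621 log2 units), Elk4 (0.945) and Ablim1 (0.902), and those near Bach2 were Cd37 (0.980), Dpysl2 (0.912) and Sorcs2 (0.907). Bcl11a was closest to Lyl1 (0.985) and Erg (0.977), which encode factors of stem and progenitor cells, then 1700016A09Rik (0.970), Hdac11 (0.970) and Ift122 (0.967). For Pax5 the nearest were Prkag3 (0.983), Rbmxl2 (0.967), Birc7 (0.955), Fbxo36 (0.931) and Tmem119 (0.931). The first 3 of these ranged over less than 1 log2 unit.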

How the data were processed

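RNA of 20 sorted samples in 9 groups had been measured on Affymetrix mouse arrays. The authors deposited 1 linear intensity per probe set and array, made with RMA per the submitters' processing notes, with no version stated in those notes. The deposited values had been assumed to be on a log2 scale, were found to be linear, and were turned into log2 values before any test.

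Of 45101 probe sets, 34958 carried 1 gene symbol in the platform annotation, 932 several and 9211 none here, and 34754 of the first were matched by Entrez ID to current RefSeq symbols. A probe set was tested if 2 or more arrays showed it above their own median, which 29047 did. limma (version 3.58.1, in R 4.3.3) fitted 9 group means with lmFit and eBayes with an intensity trend, leaving 11 residual degrees of freedom. Values after ± in differences are standard errors. P-values were adjusted by Benjamini-Hochberg over all tested probe sets, and a call is an adjusted p below 0.05. A gene counts as higher or lower when at least 1 of its probe sets was called, and probe sets of several symbols were left out.

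The 7 genes and the lists were chosen with earlier results of these data known, and a list is described by its counts and its median beside that of all probe sets. Named genes are the 7, up to 4 called genes per list and direction by size, and for each of the 7 the 5 genes of highest correlation over group means. The number of arrays limits the precision. Alternatives changed the dim filter, the probe set summary, the variance model, the scaling, the arrays fitted, the pairing, the threshold and the arrays left out. The fit was also run on simulated data with the same spread in every group, unlike the unequal spreads seen here, and no result rests on it. Protein sequences were not analysed here.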

Additional observations from a re-analysis of the deposited data

How the results depend on the processing

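Of 124 called results for single probe sets, 94 were called under every alternative, 30 were lost under at least 1, and none changed sign in 1890 checks. The counts of genes below moved most, and the cause was not tested. In pro-B cells against CLP, 5 genes were higher, against 3 with 1 probe set per gene or with CLP array 2 alone, and 1 was lower, against 0 with the mean of probe sets, array weights or only the arrays compared and 2 with housekeeping centring. LMPP against HSC had 1 lower gene, against 0 with only the arrays compared, and GMP against LMPP had 0 higher, against 1 with array weights. CD4 T cells against CLP had 4 higher, against 1 with quantile normalization or housekeeping centring and 2 with only the arrays compared. NK cells against CLP had 0 higher, against 2 with quantile normalization. Ets1-deficient against Ets1-present NK cells had 1 higher, against 2 with array weights and 0 with only the arrays compared, and 0 lower, against 2 with array weights and 1 with the stricter filter, no trend, quantile normalization or housekeeping centring.

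Leaving out 1 array at a time gave 4 to 5 higher and 0 to 1 lower genes in pro-B cells against CLP, 0 to 1 in each direction for LMPP against HSC, 2 to 4 higher for CD4 T cells against CLP, 0 to 1 higher for NK cells against CLP, and 0 to 1 in each direction between the NK genotypes. The gene higher in LMPP than in HSC came without HSC array 2, and the one higher in NK cells than in CLP without CLP array 3. A lone array is assumed there to vary like the other groups.

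Deviations of same-numbered arrays correlated at -0.162 to 0.329 over 36 pairs of groups. Of these 6 exceeded 0.1 and the other 30 did not. Among the 6 were every pair within HSC, MPP and LMPP (0.12 to 0.329). The others were CLP with HSC (0.316) and MPP (0.23), and pro-B with CD4 T cells (0.176). The numbers were not taken to pair the samples, and shared handling of the HSC, MPP, LMPP and CLP arrays was not tested. With the replicate number as a block, 1 gene, Foxo1, was called lower in Ets1-deficient NK cells (1416982_at, limma adjusted p = 0.0401).

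The checks followed all called results and, for the NK genotypes alone, the uncalled ones too. Whether uncalled differences of other comparisons changed sign was not checked. Among the results followed, only uncalled differences between the NK genotypes did so. With housekeeping centring these were Ebf1 at -0.075 and -0.052 on 1416301_a_at and 1416302_at, Irf4 1421174_at at -0.10, Pax5 at -0.11 and -0.096 on 1421765_at and 1454401_at, and Bcl11a 1447334_at at -0.086. Bcl11a 1419406_a_at was -0.092 with the mean of probe sets, and 1447335_x_at was 0.054 with quantile normalization. Leaving out 1 array moved Irf4 1421174_at between -0.32 and 0.48, Pax5 1454401_at between -0.12 and 0.29, Ebf1 1439789_at between -0.28 and 0.084, Ebf1 1448293_at between -0.24 and 0.048, Bcl11a 1447334_at between -0.17 and 0.36, and Bcl11a 1447335_x_at between -0.24 and 0.21.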
